A study of Mus musculus with 22 samples.

Results

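Mouse primordial germ cells (PGCs) cultured for 2 days with bFGF, 2i and A83-01 were compared with PGCs cultured for 2 days with bFGF alone. The comparison rests on 2 of the 22 arrays of the series, chosen by their labels and hybridised on the same slide, with 1 array in each group. The series follows PGCs as they become embryonic germ cells (EGCs), with further day 2 cultures under single additions and a set of embryonic stem cell lines. Per the labels the cells came from embryos at E11.5 and were SSEA-1 positive at collection, SSEA-1 being a surface sugar epitope of germ cells and pluripotent cells. The culture medium held serum replacement and LIF, with bFGF for the induction of EGCs. 2i stands for PD325901, an inhibitor of the kinase MEK, at 1 µM together with CHIR99021, an inhibitor of the kinase GSK3, at 3 µM. A83-01, an inhibitor of the activin, Nodal and TGF-beta type I receptors, was used at 250 nM. A second pair of arrays received the same additions in the presence of 100 nM 4-hydroxytamoxifen (4OHT), which the labels give as the means of activating AKT. It shares no array with the first pair and lies on another slide. Strain, transgenes and the number of embryos behind each array are not given in the labels used here.

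FGF signals through the kinases RAF, MEK and ERK, and active ERK switches on genes that include its own brakes, such as the Dusp phosphatases and the Sprouty proteins. GSK3 marks beta-catenin for destruction, so its inhibition lets beta-catenin act with TCF factors on Wnt target genes, while activin, Nodal and TGF-beta act through SMAD2 and SMAD3. In PGC cultures bFGF is part of the classical recipe for deriving EGCs, and blocking MEK and GSK3 is known for holding mouse pluripotent cells in the naive state.

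A gene's level is given below as the log2 of its probe's intensity relative to the 75th percentile of all probes on that array. A level of 0 is thus the 75th percentile, and a difference of 1 is 2-fold. The 2 arrays were of similar brightness, with 75th percentiles at intensities of 705 with bFGF and 581 with 2i and A83-01. The arrays of the 4OHT pair were dimmer, at 252 with 4OHT and 124 with 2i, A83-01 and 4OHT. There were 16830 genes well above background on at least 1 of the 2 arrays. With 2i and A83-01, 337 of them (2%) stood at least 2-fold above bFGF and 324 (1.93%) at least 2-fold below it, 661 (3.93%) in all. The median difference over all genes was -0.00, and the SD over the 15543 genes well above background on both arrays was 0.32. Few of these genes were bright. Among 8015 genes with a mean level of 0 or more, 25 (0.312%) were at least 2-fold apart, whereas 636 of 8815 dimmer genes (7.21%) were. Of the 661 genes, 378 were measured on 1 side only and 213 were well above background on only 1 of the 8 arrays of day 1 and day 2. With 1 array in each group these differences have no replicate check and no test.

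The clearest pattern was in the genes that report ERK activity. All 17 ERK targets on the array were lower with 2i and A83-01, with a median log2 difference of -0.81 against -0.00 over all genes, and 6 of the 17 were at least 2-fold lower. Over all genes tested 50.5% were lower and 49.5% higher by any amount, and 1.93% were at least 2-fold lower. Etv4, a PEA3-family ETS transcription factor, was at 0.21 with bFGF and -2.18 with 2i and A83-01, which is 5.22-fold lower. Its relative Etv1 was at -1.39 and -2.93, and Etv5 at -0.42 and -0.85. The family therefore ranged from a difference of -2.39 for Etv4 to -0.44 for Etv5.

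Among the brakes of the pathway, Dusp6, a phosphatase of ERK itself, was at 3.68 with bFGF and 2.61 with 2i and A83-01, 2.10-fold lower. Dusp4, a nuclear phosphatase of MAP kinases, was at 1.12 and 0.00. Spry4 was at -2.11 and -3.62, but at levels this low its difference of -1.51 depended on the background correction and was -0.83 after normexp. The other Sprouty genes differed far less, Spry2 by -0.05 and Spry1 by -0.11, and the Sprouty-related Spred1 and Spred2 by -0.46 and -0.26. Fosl1, a FOS-family subunit of the AP-1 factor, was at 1.84 and 0.38, 2.74-fold lower. The cyclin gene Ccnd1 was at 2.13 and 1.23, the immediate early gene Egr1 at 4.96 and 4.15, the ERK-responsive Phlda1 at 3.33 and 2.48, and the ephrin receptor gene Epha2 at 3.11 and 2.48, each short of 2-fold. Myc (-0.32) and Ier3 (-0.32) differed little. So the lower levels were largest for Etv4, Etv1, Spry4 and Fosl1 and close to 0 for Spry1 and Spry2.

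The machinery upstream of these targets differed less. None of 24 genes for FGF receptors, adaptors, RAS, RAF, MEK and ERK was 2-fold apart, against 3.93% of all genes. Their median difference was 0.08. The most different was the receptor gene Fgfr2, at -1.59 with bFGF and -0.97 with 2i and A83-01. Errfi1, a feedback inhibitor of the EGF receptor, was 2.22-fold lower, from 3.48 to 2.33. It was looked at after its value was seen, together with 8 other genes of the EGF receptor family that were tested. All 9, Errfi1 included, were lower, with a median of -0.40, where 50.5% of all genes were lower. The ligand gene Areg was at -3.48 and, not well above background, at -4.54, at least 2.08-fold lower, so 2 of the 9 were at least 2-fold lower against 1.93% of all genes.

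**Figure D1:**
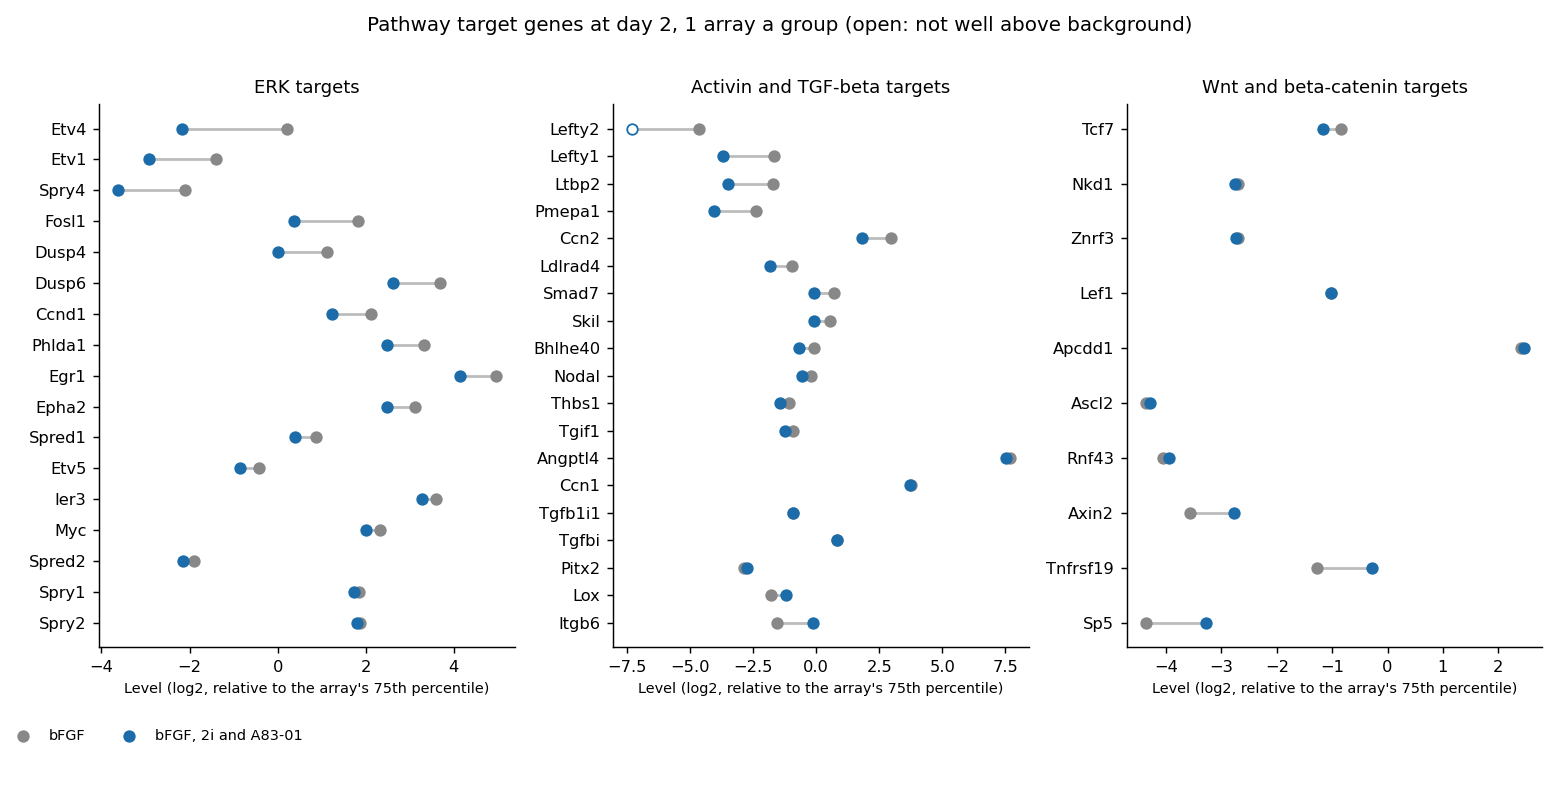
Levels (log2, relative to the array's 75th percentile) of the ERK, activin and TGF-beta, and Wnt target genes at day 2 with bFGF (grey) and with bFGF, 2i and A83-01 (blue), 1 array each. Open points were not well above background. All 17 ERK targets lie to the left with 2i and A83-01, 15 of the 19 activin and TGF-beta targets shown do, and 3 of the 10 Wnt targets do.

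Activin and TGF-beta targets were mostly lower as well, with a median difference of -0.47. Of 20 genes 16 were lower, 5 of them at least 2-fold, and 1 was at least 2-fold higher. Over all genes tested 50.5% were lower by any amount, 1.93% at least 2-fold lower and 2% at least 2-fold higher. Lefty1, a secreted antagonist and direct target of Nodal, was at -1.69 with bFGF and -3.70 with 2i and A83-01, 4.02-fold lower. Its relative Lefty2 was at -4.64 and, not well above background, at -7.31, which is at least 1.30-fold lower. Pmepa1, which encodes an inhibitor of TGF-beta signalling, was at -2.40 and -4.06. The matrix gene Ltbp2 was at -1.72 and -3.49. These genes were dim, and normexp correction brought Lefty1 to a difference of -1.18 and Pmepa1 to -0.77. Ccn2, a matricellular gene induced by TGF-beta, was bright at 2.98 and 1.83.

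The inhibitory SMAD gene Smad7 was at 0.71 and -0.08, and the SMAD corepressor gene Skil at 0.54 and -0.11. Not all targets went this way. Itgb6, an integrin subunit that helps to release TGF-beta, was 2.76-fold higher, at -1.57 and -0.11, and its 3 probes gave differences of 1.34 to 1.51. Tgfbi (0.01), Tgfb1i1 (-0.01) and Ccn1 (-0.04) hardly differed, and the signs of Tgfbi and Tgfb1i1 turned under other settings. Of 23 ligands, receptors, SMADs and cofactors of the pathway, 2 were at least 2-fold lower, against 1.93% of all genes. These were the latency protein gene Ltbp1, at -1.52 and -2.68, and Tdgf1, the Nodal coreceptor Cripto, at 0.09 and -0.91. The median of the 23 was -0.03. Ltbp1 fell short of 2-fold after normexp, at -0.78, and Tdgf1 sat at the threshold, at -0.91. The activin subunit gene Inhba was at 0.32 and -0.60.

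Wnt and beta-catenin targets had no common direction. The median of the 10 genes above background was 0.05, with 7 higher and 3 lower. The signs of 4 of the 10, Apcdd1, Lef1, Nkd1 and Znrf3, turned under another background correction or normalization. Of the 10, 1 was at least 2-fold higher, against 2% of all genes. That gene was Sp5, a transcription factor gene with TCF sites in its promoter, at -4.36 with bFGF and -3.28 with 2i and A83-01. Its difference of 1.08 was 0.59 after normexp and 0.95 after quantile normalization. Axin2, the feedback gene most used as a readout of the pathway, was at -3.57 and -2.78, and Tnfrsf19 at -1.27 and -0.28 with 1 probe and close to -4.17 on both arrays with the other. Lef1 differed by 0.01, Tcf7 by -0.34, Znrf3 by -0.04 and Nkd1 by -0.06. None of 31 Wnt ligands, receptors and pathway proteins was 2-fold apart, against 3.93% of all genes.

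The promoter of Sp5 is shown because it is the Wnt target with the largest difference. It spans chr2:70474673-70474972 on the plus strand of GRCm38.p6 in RefSeq, from 250 bases before to 50 after the start. Capitals mark CTTTGAT, the TCF motif searched on both strands, whose first base is at position -104, counted from the start.
Sp5 promoter: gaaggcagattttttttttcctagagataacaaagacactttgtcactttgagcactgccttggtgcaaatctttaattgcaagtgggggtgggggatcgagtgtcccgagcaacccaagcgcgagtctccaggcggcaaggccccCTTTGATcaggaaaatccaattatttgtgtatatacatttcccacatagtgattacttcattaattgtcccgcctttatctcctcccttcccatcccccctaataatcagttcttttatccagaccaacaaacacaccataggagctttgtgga
This motif was present in 2.57% of the promoters of all genes tested and in 3.73% of all RefSeq promoters. It was in 17 of 231 promoters of genes at least 2-fold higher (7.36%). For genes at least 2-fold lower it was in 4 of 219 (1.83%). Most genes at least 2-fold apart were dim, and the bearing of that on these shares was not tested. The SMAD motif GTCTAGAC was present in 0.27% of the promoters of tested genes and in none of 11 promoters of activin and TGF-beta targets, which cover 6 of the 20 genes. The ETS motif CCGGAAG was in 15.7% of the promoters of tested genes and in none of 11 of ERK targets, which cover 9 of the 17 genes. It was in 4.33% of the promoters of genes at least 2-fold higher and 2.28% of those of genes at least 2-fold lower. Both shares were below that of tested genes. The promoters of tested genes cover 11318 of 16830 genes, and those of the others were not looked at. A match is a run of letters, not a site shown to be used.

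The 25 bright genes that were at least 2-fold apart were looked at after their values were seen, because differences between bright spots are the least noisy here: their SD over 8015 genes was 0.20, against 0.41 for dimmer genes. Of the 25, 16 were lower and 9 higher with 2i and A83-01. The lower group was led by Prl2c3 and Prl2c5, which encode proliferins, placental hormones of the prolactin family that growth factors also induce in cultured fibroblasts. Prl2c3 was at 3.88 with bFGF and 1.72 with 2i and A83-01, 4.45-fold lower, and its 3 probes gave -2.22 to -2.07. Prl2c5 was at 4.94 and 2.90. The genes of this cluster are close copies, so the probes may not tell them apart. The placental lactogen genes Prl3d1 (-0.18 and -1.57) and Prl3d2 (-0.85 and -2.47) and their relative Prl7a2 (-1.29 and -2.74) were also at least 2-fold lower. All 8 prolactin-family genes above background were lower, with a median difference of -1.42, and 5 of the 8 at least 2-fold, against 50.5% and 1.93% of all genes. The family was chosen after Prl2c3 and Prl2c5, which it includes, were seen. With 4OHT, Prl3b1, lower by any amount here (-0.20), had a difference of 0.53. Plac1, a further placental gene, was at -0.38 and -2.45.

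Prkg2, a cGMP-dependent protein kinase gene, was at 2.18 and 0.15, 4.08-fold lower. Sprr1a, an epithelial cornified envelope gene, was at 2.96 and 1.22, and Grem1, a secreted BMP antagonist, at 2.76 and 1.14. The small proline-rich family of Sprr1a, chosen after it was seen, had no common direction. Of 9 tested 6 were lower, where 50.5% of all genes were, and 3 higher. At least 2-fold lower were 2, Sprr1a included, against 1.93% of all genes, and 1 was at least 2-fold higher, against 2%. The family's median was -0.16, and 0.54 with 4OHT. Hmga2, a chromatin protein gene of embryonic cells, was at 0.97 and -0.44, and both of its probes were lower. Il33, a nuclear cytokine gene, was at 0.93 and -0.41. Its receptor gene Il1rl1, at a mean level just below 0, was at 0.95 and -1.34, 4.87-fold lower. The levels of ligand and receptor were thus both lower. Serpinb2, a serine protease inhibitor gene, was at 2.12 and 0.84. Of the AP-1 subunits, Fosl1 alone was 2-fold apart: Fos (-0.02), Jun (0.16), Fosb (0.13), Fosl2 (0.17), Junb (-0.24) and Jund (0.40) were not.

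**Figure D2:**
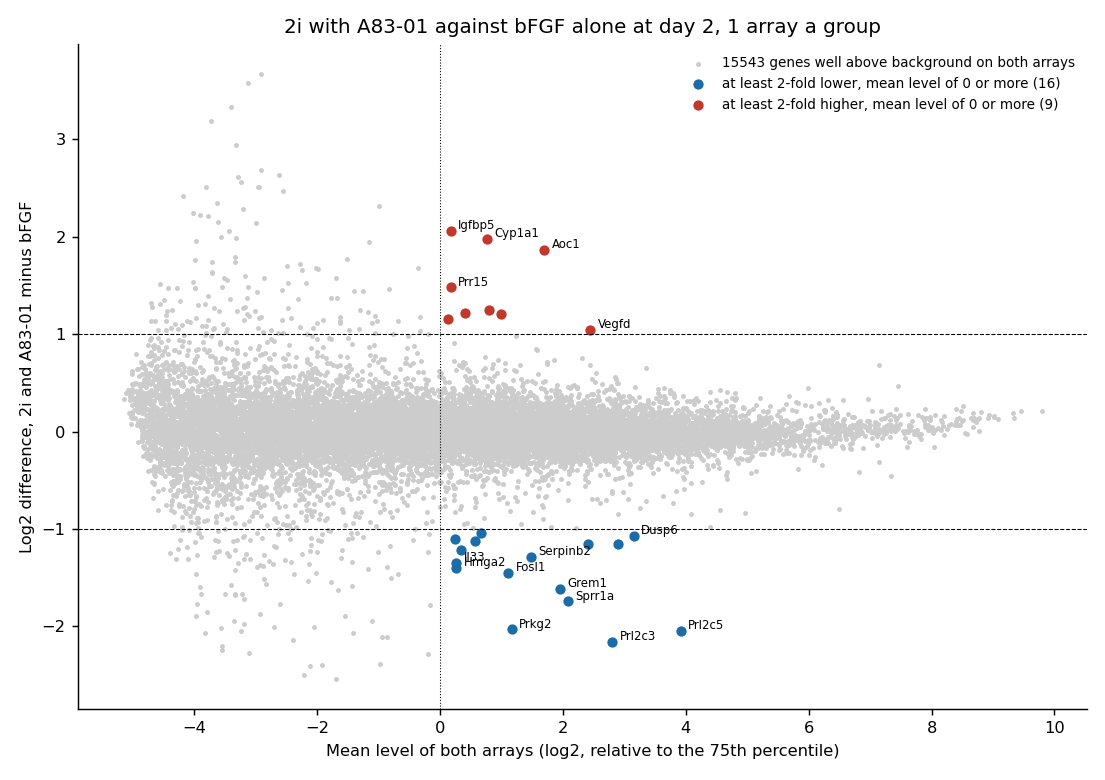
Log2 difference (2i and A83-01 minus bFGF) against the mean level of both arrays for the 15543 genes well above background on both. Dashed lines mark 2-fold and the dotted line a mean level of 0. The 16 lower (blue) and 9 higher (red) genes to its right lie past 2-fold by the rule that chose them. The SD of all genes to its right is 0.20, and the cloud widens to the left.

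Promoters of some of these lower genes are shown because the AP-1 motif TGANTCA recurred among them. RefSeq held 15 promoters of 11 of the 16 genes. The motif, searched on both strands, was in 5 of the 15: in both overlapping windows of Serpinb2 and in 1 window each of Sprr1a, Fblim1 and Prl2c3. It was in 5.44% of the promoters of all genes tested. It was in 12.3% of the promoters of genes at least 2-fold lower and in 12.6% of those of genes at least 2-fold higher, and in 2 of 10 promoters of the bright higher genes, so its share was alike in both directions. In the promoter of Sprr1a (chr3:92485832-92486131, minus strand) it begins at positions -146 and -116, in that of Serpinb2 (chr1:107511173-107511472, plus strand) at -94, and in that of Prl2c3 (chr13:12800030-12800329, minus strand) at -209. Capitals mark the motif. The coordinates are those of GRCm38.p6.
Sprr1a promoter: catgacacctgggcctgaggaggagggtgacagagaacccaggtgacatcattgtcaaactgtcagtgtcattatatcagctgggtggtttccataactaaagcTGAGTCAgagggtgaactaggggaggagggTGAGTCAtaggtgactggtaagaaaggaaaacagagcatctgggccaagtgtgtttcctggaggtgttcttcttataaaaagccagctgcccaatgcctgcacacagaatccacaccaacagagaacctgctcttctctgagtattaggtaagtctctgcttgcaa
Serpinb2 promoter: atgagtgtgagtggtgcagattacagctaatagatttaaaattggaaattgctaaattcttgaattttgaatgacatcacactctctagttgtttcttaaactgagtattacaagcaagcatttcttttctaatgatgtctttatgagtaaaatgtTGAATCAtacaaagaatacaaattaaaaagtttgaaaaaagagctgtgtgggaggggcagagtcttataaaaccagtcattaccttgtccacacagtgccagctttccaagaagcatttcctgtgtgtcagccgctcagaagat
Prl2c3 promoter: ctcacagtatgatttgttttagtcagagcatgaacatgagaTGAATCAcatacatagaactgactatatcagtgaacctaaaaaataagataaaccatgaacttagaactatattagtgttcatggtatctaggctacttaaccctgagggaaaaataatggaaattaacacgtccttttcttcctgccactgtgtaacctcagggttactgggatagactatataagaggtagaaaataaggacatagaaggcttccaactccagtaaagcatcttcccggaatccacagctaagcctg

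The genes that were higher formed no single family. Igfbp5, a secreted binding protein of insulin-like growth factors, was at -0.85 with bFGF and 1.20 with 2i and A83-01, 4.16-fold higher. Cyp1a1, the cytochrome P450 gene best known as a target of the aryl hydrocarbon receptor, was at -0.22 and 1.75, 3.94-fold higher. Aoc1, which encodes diamine oxidase, was at 0.76 and 2.63, and Prr15 at -0.57 and 0.91 with both probes higher. The chemokine gene Ccl20 (0.17 and 1.41), Pdzk1ip1 (-0.20 and 1.02), the epidermal gene Sbsn (0.38 and 1.59), the RAG GTPase gene Rragd (-0.44 and 0.71) and the lymphangiogenic factor gene Vegfd (1.92 and 2.97) were each 2.07-fold to 2.37-fold higher. Other aryl hydrocarbon receptor targets, listed after Cyp1a1 was seen, were above bFGF by less than 2-fold: Cyp1b1 by 0.42, Aldh3a1 by 0.23, Tiparp by 0.13 and Nqo1 by 0.10. Ahrr was well above background with 2i and A83-01 alone, and its bound was 1.80-fold. In the pair with 4OHT these targets had no common direction: Cyp1b1 differed by -0.85, Tiparp by -0.38 and Nqo1 by 0.61. The 4 tested there, Cyp1a1 included, had a median of 0.12, where that of all genes was 0.23.

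The Cyp1a1 promoter is shown for the core of the motif bound by this receptor, GCGTG. It spans chr9:57697363-57697662 on the plus strand, and the motif, in capitals, begins at position -54.
Cyp1a1 promoter: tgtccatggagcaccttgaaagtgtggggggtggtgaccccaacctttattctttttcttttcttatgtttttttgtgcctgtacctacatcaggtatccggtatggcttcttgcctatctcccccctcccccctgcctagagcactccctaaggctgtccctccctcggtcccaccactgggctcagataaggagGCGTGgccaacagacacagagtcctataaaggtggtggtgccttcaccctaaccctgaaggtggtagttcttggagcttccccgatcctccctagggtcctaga
So short a motif is common: it was in 48.4% of the promoters of all genes tested and was added to the search after Cyp1a1 was seen.

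The same additions were also measured in the presence of 4OHT, on arrays of their own. Of 15576 genes tested in that pair, the additions gave 1366 (8.77%) that stood at least 2-fold higher and 716 (4.6%) at least 2-fold lower, 2082 (13.4%) in all, around a median of 0.23. This balance depended on the scaling. Among the 14795 genes tested in both pairs, 1101 were at least 2-fold higher and 707 lower with 4OHT, around a median of 0.21, whereas cyclic loess gave 685 higher and 1447 lower, around a median of 0.02. The marker levels of the pair also differed from those without 4OHT: the summed level of fibroblast markers was 3.65 with 4OHT and 2.88 with 2i, A83-01 and 4OHT, that of epithelial markers 8.76 and 8.53, that of contractile genes 7.99 and 8.57, that of somatic genes of the gonad 6.24 and 7.47 and that of PGC markers 7.40 and 7.76. Their part in the differences with 4OHT was not tested. Of the 16 bright lower genes, 11 were at least 2-fold lower there too, and of the 9 higher genes 7 were at least 2-fold higher, with none 2-fold the other way. Grem1 was at 0.43 with 4OHT and, not well above background, at -4.53 with 2i, A83-01 and 4OHT, at least 8.40-fold lower. Hmga2 was at 3.20 and -0.70, Prkg2 at 1.97 and -0.90, and Fosl1 at 0.50 and -1.84. Cyp1a1 was at 0.02 and 3.04, Pdzk1ip1 at 1.61 and 4.50, and Sbsn at 0.12 and 2.73. Of the 25 bright genes 14 differed more with 4OHT than without, in the same direction, 8 of the 16 lower and 6 of the 9 higher ones. The other 11 did not, among them Prl2c3, with differences of -2.16 without and -1.45 with 4OHT, and Igfbp5, with 2.06 and 1.81. Whether these differences depend on 4OHT was not tested, and the brightness of the 4OHT arrays and their slide cannot be told apart from 4OHT.

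The ERK targets had a median difference of -0.80 with 4OHT, with 14 of 17 lower and 5 at least 2-fold lower, where 38.6% of all genes were lower and 61.4% higher. Fosl1 was at least 2-fold lower in both pairs, but the other members that were so differed. Ccnd1 was at 3.31 and 0.96, Egr1 at 2.29 and -0.36, Phlda1 at 4.23 and 2.56, and Myc at 1.47 and 0.04, each at least 2-fold lower. Dusp6, at 5.66 and 5.20, and Etv4, at 1.94 and 1.00, were not, and Spry1, Spry2 and Ier3 were higher by 0.19 to 0.59. Activin and TGF-beta targets had a median difference of -0.83 with 4OHT. Of 19 tested 6 were at least 2-fold lower, against 4.6% of all genes, and 3 at least 2-fold higher, against 8.77%. The 13 Wnt targets tested with 4OHT, not the same set as the 10 without it, had a median difference of -0.71. Of them 9 were lower and 4 higher. At least 2-fold lower was 1, against 4.6% of all genes, and 0 were at least 2-fold higher, against 8.77%. The median includes signals not well above background. Apcdd1, a Wnt inhibitor gene, was at 1.25 and -0.44. Axin2 was at -3.20 and, not well above background, at -4.76.

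Over all genes tested in both pairs, 130 were at least 2-fold higher without 4OHT, and 62 of them were so with 4OHT. That is 47.7% of the 130 and 5.63% of the 1101 genes higher with 4OHT, which made up 7.44% of all genes. Of 145 lower genes 34 recurred, 23.4% of them and 4.81% of the 707 lower with 4OHT, which made up 4.78% of all genes, while 22 were at least 2-fold higher with 4OHT. Across the 12586 genes well above background on all 4 arrays the differences of the pairs had a Pearson correlation of 0.33, given as a description. Recurring genes below a mean level of 0 included Slc14a1, a urea transporter gene, at -0.92 and -3.33 without 4OHT. With 4OHT Slc14a1 was at 0.01 and, not well above background, at -4.88, at least 6.29-fold lower. The keratin gene Krt20 was at 0.19 and -1.93 without 4OHT and at 1.34 and -1.50 with it. Tmem255a was at -4.22 and -1.72 without 4OHT and, from a level not well above background, at -0.32 with it, at least 10.8-fold higher. Gsc, the homeobox gene goosecoid, was at -4.46 and -2.40 without 4OHT and, from a level not well above background, at -1.75 with it, at least 4.39-fold higher.

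**Figure D3:**
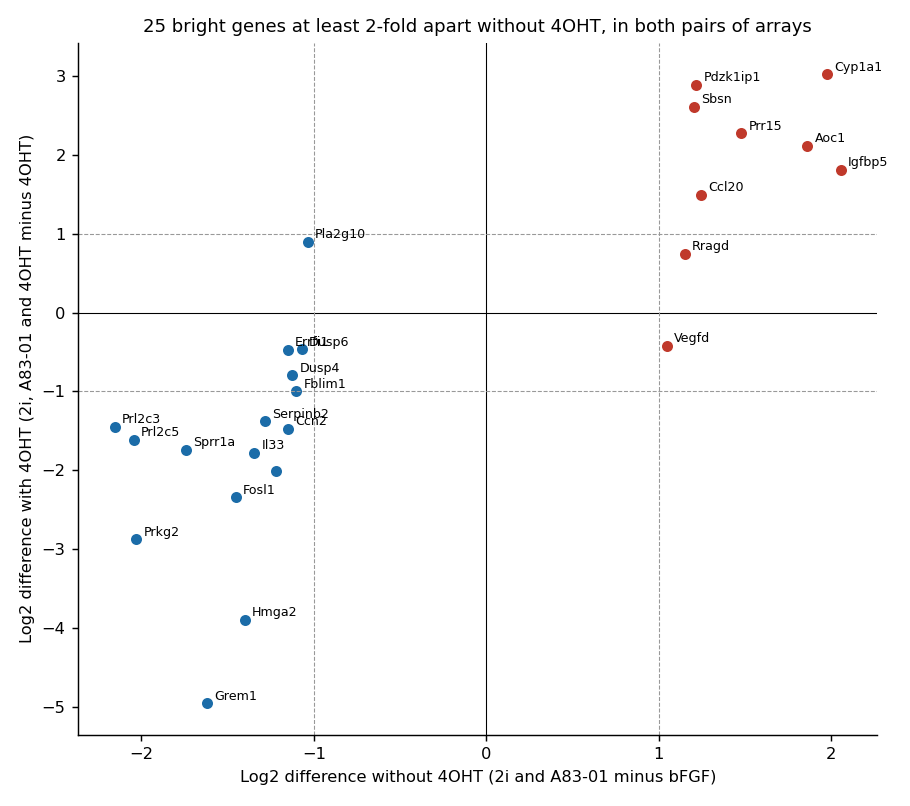
Log2 differences of the 25 bright genes at least 2-fold apart without 4OHT (horizontal axis, 2i and A83-01 minus bFGF) in the pair with 4OHT (vertical axis), 1 array a group. Blue genes were lower and red genes higher without 4OHT, and dashed lines mark 2-fold. Of the 16 lower genes 15 lie below 0 on the vertical axis, all but Pla2g10, and of the 9 higher genes 8 lie above 0, all but Vegfd. Grem1 was not well above background with 2i, A83-01 and 4OHT.

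A limma fit over the 4 arrays, with a term for the additions and one for 4OHT, was the test over both pairs, with 1 residual degree of freedom. At an adjusted p under 0.05 it called 324 of 17604 genes (1.84%), 251 that rose (1.43%) and 73 that fell (0.415%). Of the 324 genes, 288 were not well above background on at least 1 of the 4 arrays, so their fitted changes rest on signals near background, and 36 were measured on all 4. The call count also depends on the scaling: it was 0 after quantile normalization, cyclic loess, normexp or a percentile over probes bright on every day 2 array, with 492, 715, 469 and 1044 genes at an unadjusted p under 0.05. With the 75th percentile, and for genes measured on all 4 arrays, Prkg2 fell by 2.45 (SE 0.42, limma adjusted p = 0.00332) and Hmga2 by 2.65 (SE 0.49, limma adjusted p = 0.00499). Cyp1a1 rose by 2.50 (SE 0.42, limma adjusted p = 0.00316) and Aoc1 by 1.99 (SE 0.41, limma adjusted p = 0.00889). Each moved the same way in both pairs. Of the bright genes 8 of 16 fell and 6 of 9 rose in this fit. Grem1 was among those that fell, on a signal not above background with 2i, A83-01 and 4OHT. The bright genes, with Prkg2, Hmga2, Cyp1a1 and Aoc1 among them, were chosen by their difference without 4OHT, which is part of this fit. Their calls and shared direction are therefore no separate support. Of the ERK targets Fosl1 and Egr1 fell. Of the activin and TGF-beta targets 4 of 20 fell, 1 of them measured on all 4 arrays. No member of the Wnt target, naive pluripotency or PGC marker lists was called, which does not show that they did not differ.

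The single additions at day 2 lie on a slide of their own and share the bFGF array with this comparison, so their values are set side by side only. No single addition showed the pattern of the ERK targets: their median against bFGF was 0.24 with PD325901 alone, 0.43 with CHIR99021 alone and 0.66 with A83-01 alone. Dusp6, at 3.68 with bFGF and 2.61 with 2i and A83-01, was at 4.19 on the array labelled with the MEK inhibitor, 4.91 with CHIR99021 and 5.10 with A83-01. Fosl1 was at 2.07, 1.01 and 2.79 on these arrays, and Etv4 at 1.11, 1.60 and 1.58. None of the 17 ERK targets was 2-fold lower with PD325901 alone than with bFGF, where 3.53% of all genes were. At day 3 with 2i and A83-01, on yet another slide, Dusp6 was at 4.30, Fosl1 at 2.27 and Etv4 at 0.61. The low levels of these genes with 2i and A83-01 at day 2 were therefore seen on neither the MEK inhibitor array nor the day 3 array, and the slide was not tested as a cause.

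Other genes did have a counterpart among the single additions. With A83-01 alone Lefty1 was not well above background and Pmepa1 was at -3.94. Lower activin and TGF-beta targets were not particular to A83-01. Their median against bFGF was -0.77 with PD325901, -0.11 with CHIR99021 and -0.49 with A83-01. With PD325901 6 of the 20 genes were at least 2-fold lower, where 3.53% of all genes were, and 0 were at least 2-fold higher. Cyp1a1 was at 1.54 with CHIR99021, 0.61 with A83-01 and -1.09 with PD325901, and Igfbp5 at 1.66 with A83-01. Sp5 was at -2.05 with CHIR99021, above its -3.28 with all additions together. Sprr1a was at 1.44 with CHIR99021 and at 3.49 and 3.88 with the other additions. Among the single additions Prl2c3 and Grem1 were highest with A83-01, at 5.53 and 4.03.

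Day 1 with bFGF, on the same slide, gives earlier levels in culture. On the array labelled as PGCs with no culture day, on another slide, several bright lower genes were far below their day 1 level. Prl2c3 was at -4.88 there, Prkg2 at -4.76, Grem1 at -5.69 and Fosl1 at -4.14. These values lie below the lowest signal well above background on that array, so their size is not a measured level. Dusp6 (4.94), Ccn2 (3.72) and Hmga2 (1.11) were not. Of the 16 bright lower genes 10 were lower on day 1 than on day 2 with bFGF, and of the 9 higher genes 8 were higher on day 1, a count that shares the bFGF array with the rule that chose the genes. Prl2c3 was at 1.88 on day 1, 3.88 on day 2 with bFGF and 1.72 with 2i and A83-01. Cyp1a1 was at 0.99, -0.22 and 1.75, and Prr15 at 1.40, -0.57 and 0.91. Dusp6, at 4.10, 3.68 and 2.61, and Hmga2, at 1.35, 0.97 and -0.44, were higher on day 1 than on either of these day 2 arrays. The arrays with bFGF alone and with the additions thus stood on either side of the day 1 level for some genes and both below it for others.

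**Figure D4:**
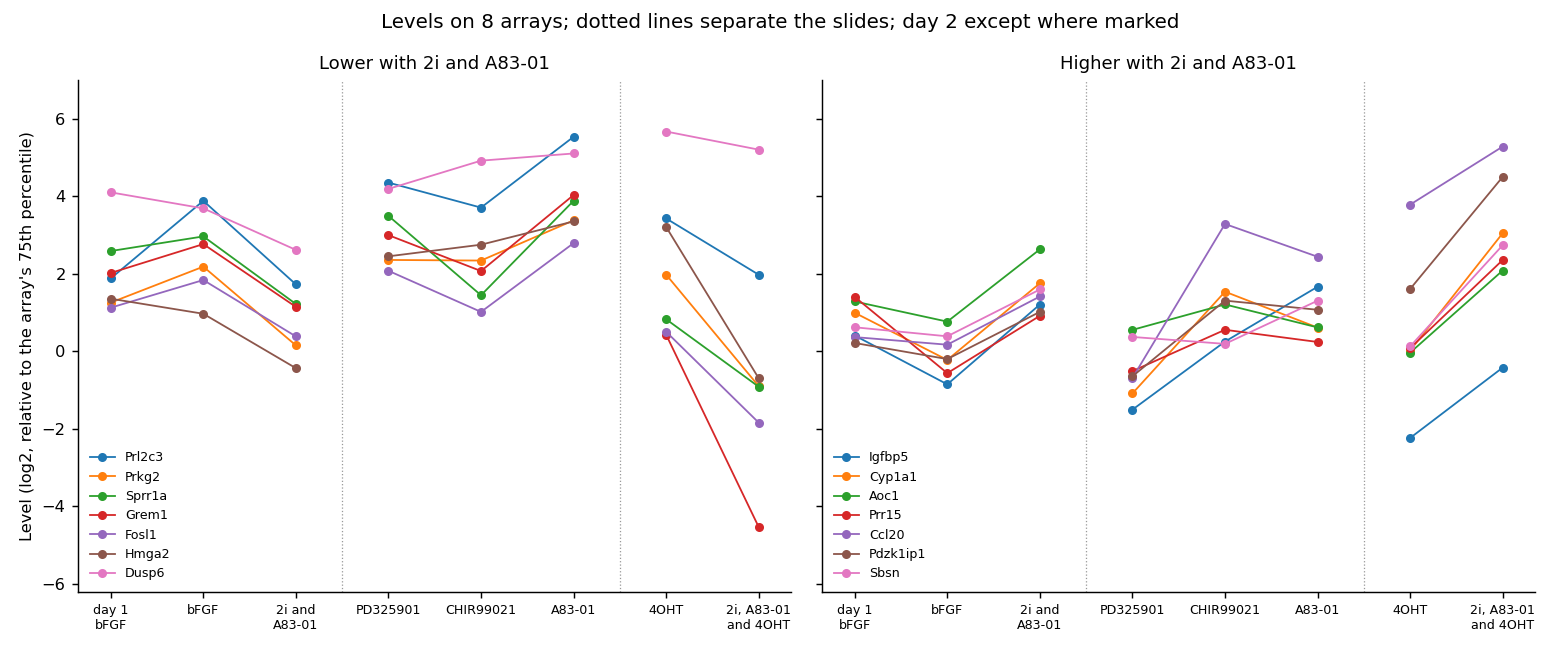
Levels (log2, relative to the array's 75th percentile) of 7 genes lower and 7 genes higher with 2i and A83-01, on the array of day 1 and the 7 arrays of day 2. Dotted lines separate the slides, and points joined by lines share a slide. On the first slide the 7 genes at left are lowest with 2i and A83-01 (Prl2c3 at 1.72, Dusp6 at 2.61), and with PD325901 on the second slide each of the 7 is higher than that (Prl2c3 at 4.35, Dusp6 at 4.19).

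The core pluripotency genes were nearly level between the arrays. Pou5f1, the core pluripotency factor OCT4, was at 3.31 with bFGF and 3.24 with 2i and A83-01. Nanog was at 1.82 and 1.95, Sox2 at 0.68 and 0.72, the naive factor gene Esrrb at 1.98 and 2.03, and Zfp42, a marker of the naive state, at 3.09 and 3.04. Each pair of levels lay closer together than the SD of 0.20 over bright genes. Of 26 naive pluripotency genes none was 2-fold higher, against 2% of all genes, and 3 were at least 2-fold lower, against 1.93%, around a median of 0.04. The 3 were Dnmt3l, a cofactor of DNA methylation (-2.25 and -3.62), Nr0b1 (-1.50 and -2.73) and Tdgf1. After normexp they were short of 2-fold, at -0.71, -0.72 and -0.91. With 4OHT 4 of 26 were at least 2-fold higher, against 8.77% of all genes, around a median of 0.40, and Nanog was at 2.47 and 4.02.

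The label of the cells was checked against markers of PGCs. All 14 PGC markers were well above background on both arrays, and their summed level was 6.61 with bFGF and 6.77 with 2i and A83-01. Dppa3, the maternal and PGC factor Stella, was at 4.33 and 4.76, Tfap2c, a PGC specification factor, at 2.23 and 2.30, and its partner Prdm1 at -1.14 and -0.98. The receptor gene Kit was at 1.05 and 1.37 and the RNA-binding factor gene Dnd1 at 0.98 and 1.37. Nanos3, needed for PGC survival, was the exception at -1.38 and -2.50, 2.18-fold lower, or -0.72 on the log2 scale after normexp. Of 28 later germline genes none was 2-fold apart, against 3.93% of all genes. Ddx4, the germ cell helicase Vasa, was at 1.08 and 1.06. On the array of A83-01 alone Pou5f1 was at 1.81, Dppa3 at 2.24 and Kit at -1.29, below the levels with all additions together. Fewer germ cells and less RNA per germ cell cannot be told apart in such bulk samples.

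Markers of other cells were measured on both arrays, and their summed levels, which the brightest members carry, are given here. The summed level of 14 fibroblast markers was 8.18 with bFGF and 8.31 with 2i and A83-01, with 1 and 2 of them not well above background. It was 6.59 and 6.36 for 14 contractile genes, of which 1 was not well above background on either array, and 6.29 and 6.34 for 16 epithelial genes, which were all well above background. Both kinds of RNA were thus measured in both cultures. The summed level was 3.81 and 4.05 for 14 somatic genes of the gonad (5 and 6 not well above background), 3.59 and 3.85 for 10 trophectoderm genes (4 and 4) and 2.88 and 2.86 for 12 endoderm genes (4 and 3). It was 1.59 and 1.55 for 11 endothelial genes (4 and 6) and -0.32 and -0.47 for 13 blood genes (6 and 8). The part of these other cells in the differences above was not tested. Postn, a matrix gene of fibroblasts, was the 1 fibroblast marker 2-fold apart, at -0.42 and -2.96 with the probe that was above background. Genes of the contractile list were lower in 11 of 13 cases, where 50.5% of all genes were lower, with a median of -0.19. Tagln, the smooth muscle gene transgelin, was at 3.71 and 3.00.

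Some lists leaned one way without a member reaching 2-fold. Over all genes tested 49.5% were higher and 50.5% lower by any amount. Of 16 epithelial genes 14 were higher, by a median of 0.43. The tight junction gene Cldn3 was at -0.69 and 0.31, and the keratin genes Krt19 and Krt7 were at 1.93 and 2.68 and at 2.58 and 3.13. All 13 interferon-stimulated genes tested were higher, by a median of 0.27, among them Mx2 at 0.18 and 0.70, whereas with 4OHT their median was -0.55. Of 16 p53 targets 14 were higher, by a median of 0.19. With 4OHT their median was 0.76, where that of all genes was 0.23. There 7 were at least 2-fold higher, against 8.77% of all genes. Trp53inp1 was at 1.77 and 2.15, and at 2.73 and 3.83 with 4OHT. In the other direction 15 of 16 ribosome biogenesis genes were lower, with a median difference of -0.18, as were 15 of 18 DNA replication genes (-0.06), 13 of 16 mitosis genes (-0.14) and 11 of 17 glycolysis genes (-0.15). Mki67, the proliferation antigen, was at 2.58 and 2.18. Of the gene lists plotted, the ERK and the activin and TGF-beta targets alone had more than 3 members 2-fold apart without 4OHT.

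**Figure D5:**
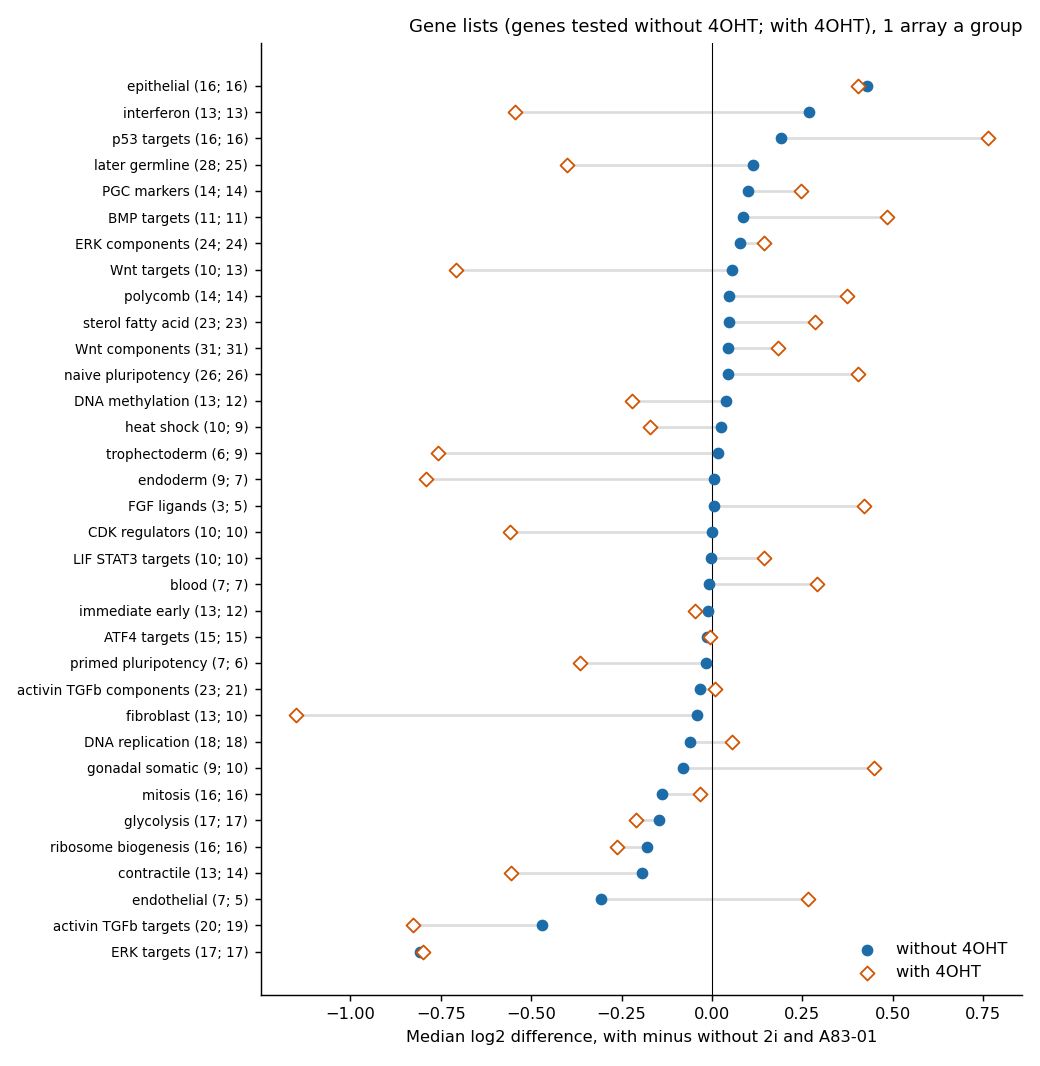
Median log2 difference with minus without 2i and A83-01 for each gene list, without 4OHT (filled circles) and with 4OHT (open diamonds), 1 array a group. The numbers in brackets are the genes tested in each pair. ERK targets lie at -0.81 and -0.80 and activin and TGF-beta targets at -0.47 and -0.83. The Wnt targets (0.05 and -0.71) and the interferon-stimulated genes (0.27 and -0.55) lie on opposite sides of 0. The Wnt medians are over 10 and 13 genes, and the one with 4OHT includes signals not well above background.

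The widest differences of all came from dim probes. On the higher side Krtap8-1, a hair keratin-associated gene, was at -4.74 and -1.08, the olfactory receptor gene Olfr738 at -4.91 and -1.34, and Fbxw16 at -5.33 and -2.14. Against background, Cyp2c66 was at least 23.1-fold, Olfr1100 at least 18.3-fold and Olfr283 at least 18.1-fold higher. On the lower side Olfr391 was at least 34.6-fold, Gm2795 at least 17.4-fold and Gzma, a protease gene of cytotoxic lymphocytes, at least 15.6-fold lower. Of the 8 genes with the widest bounds 6 were well above background on 1 of the 8 arrays of day 1 and day 2 only. Lao1, a secreted amino acid oxidase gene, was at -1.41 with 2i and A83-01 and not well above background with bFGF or on day 1. Of the 20 genes farthest apart among those measured on both arrays, 19 had a mean level below 0.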

How the data were processed

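Agilent 1-colour arrays were scanned and their spots quantified with Agilent Feature Extraction 10.7.3.1, per the submitters' processing notes. The deposited values are processed signal intensities, background-subtracted and detrended within each array by that software, per the file headers. Each intensity was divided by its array's 75th percentile and log2 transformed. Outlier spots were left out, repeat spots averaged, and the brightest probe of a gene over the 22 arrays represented it. A gene was tested where it was well above background on 1 array of a pair. A dim side was set to the lowest signal well above background on its array, or its own if higher, giving "at least" folds. Calls required 2-fold. Medians and directions of lists, and limma, use the signals as measured, also below background. Probes were named through RefSeq accessions and symbols, 41174 probes giving 28088 genes.

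The pairs were fitted together with limma 3.58.1 in R 4.3.3, as 4 arrays with terms for the additions and for 4OHT, with Benjamini-Hochberg adjustment. The fit was tested on simulated data of 17604 genes, drawn with its own spread and no departure from additivity. It called 8% of log2 changes of 1, 82% of those of 2 and 100% of those of 4, with 22 false calls. The simulation could not test how the fit handles pairs that differ in their response. The error of the fit, with 1 residual degree of freedom, was the difference between the pairs in their response to the additions. In that difference 4OHT and the slide cannot be told apart. The variance of each gene was also drawn towards that of all genes, which was weighted as 21.4 degrees of freedom. The p-values of the fit therefore do not measure the spread between like arrays, and the labels do not tie the arrays to separate cultures. The number of arrays limits the precision.

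Named were the 10 highest and 10 lowest differences on both arrays, the 8 highest and 8 lowest shared by both pairs, the 4 largest bounds each way, all ERK, activin and TGF-beta and Wnt targets, up to 4 genes of each other list, and 10 germ cell and pluripotency genes. The text gives a selection of these. The 25 bright genes and the prolactin, AP-1, EGF receptor, aryl hydrocarbon receptor and small proline-rich families were chosen after their values were seen. All members and lists were chosen with earlier results of these data known. Background correction, normalization, probe choice and filters were varied. Dusp5, Fgf4, Piwil4, Prdm14 and Sox3 were not analysed here. 1 further gene is counted in its lists but not reported here.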

Additional observations from a re-analysis of the deposited data

Results flagged for a closer look

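Pglyrp1, an antibacterial peptidoglycan recognition gene, went opposite ways in the pairs. Its difference was -2.27 without 4OHT, from -1.97 to -4.24, and 1.32 with 4OHT, from -3.80, not well above background, to -2.49. The difference between the pairs was not tested, since each pair has 1 array a group.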

How the results depend on the processing

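Which genes were 2-fold apart depended on how dim probes were treated. The count of 661 was 234 after normexp (130 higher, 104 lower), which adds an offset of 50 and so shrinks dim differences by construction. It was 1655 with no filter (855 and 800), 283 with genes well above background on both arrays (144 and 139), and 25 at a mean level of at least 0 (9 and 16), the last chosen after seeing the data. Recurrence with 4OHT was 7 genes higher and 11 lower at that level, and 54 lower after cyclic loess, both added after seeing the data. The limma count of 324 was 0 after normexp, quantile normalization, cyclic loess or scaling to the probes bright on every day 2 array, 0 over 7 arrays with 4 additive terms (474 genes at an unadjusted p under 0.05) and 0 without the 4OHT term (148). It was 203 in the deposited value table, 3 with the mean of a gene's probes, and 159 among genes well above background on every array, of which 36 were shared. The cause was not tested. Of the values of the 208 named genes 69 moved and 1179 did not, and of the list medians 1 moved and 185 did not. No named gene at least 2-fold apart changed sign. The rest of the 661 genes were not checked for this. Of the list medians 21 of 204 values changed sign, in 12 lists whose medians lay within 0.08 of 0. A change of sign by itself was not counted as a move. Leaving out a replicate was not possible with 1 array a group. The labels give no replicate numbers. The 4OHT term of the limma fit sets each array with 2i and A83-01 against its partner on the same slide.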
